A study of Rattus norvegicus with 6 samples.

Results

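The miR-17, miR-18 and miR-19 seed families are 3 groups of small regulatory RNAs with different seeds, encoded in related clusters of which some hold all 3 and others only miR-17 family members. Their members were chosen by name, as every row whose hairpin, ignoring its copy number, was rno-mir-17, rno-mir-18a, rno-mir-19a, rno-mir-19b, rno-mir-20a, rno-mir-20b, rno-mir-93 or rno-mir-106b, where rno stands for rat. These were 8 of the 752 miRNA names in the files, on 10 hairpins, with counts on 12 of 932 mature arms. The libraries came from RSC96, an immortalised rat Schwann cell line, held for 48 h in high glucose (3 libraries) or in low glucose as the control (3 libraries). No allele, vector or further agent is named in the labels, the glucose concentrations are not given there, and all libraries share the line and the time. The series title concerns exosomes, but the sample labels give nerve as the tissue and total RNA as the material, and the extraction text names retinas, so cells and vesicles cannot be told apart. The labels do not say whether the replicates were separate cultures, so each p-value below covers only the differences among these libraries, possibly technical ones.

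A microRNA is cut from a hairpin precursor as a short duplex, of which usually 1 strand (the guide) is kept and the other is degraded, although both can be kept. The guide pairs with messenger RNAs mainly through its seed, bases 2 to 8 from the 5′ end, and lowers their translation and stability. In mouse and human cells the miR-17/92 cluster is induced by MYC and E2F factors and is known for promoting proliferation and survival, with the cell cycle inhibitor CDKN1A among the targets of the miR-17 seed.

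The RefSeq sequences of the 8 arms that carry the family seeds, called guide arms here (assembly GRCr8), show why the members fall into 3 families. They are written 5′ to 3′ with the seed in capitals.
miR-17-5p: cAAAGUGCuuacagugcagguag
miR-20a-5p: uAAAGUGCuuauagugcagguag
miR-20b-5p: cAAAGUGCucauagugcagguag
miR-93-5p: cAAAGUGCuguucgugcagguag
miR-106b-5p: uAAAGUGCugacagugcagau
miR-18a-5p: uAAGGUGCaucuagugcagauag
miR-19a-3p: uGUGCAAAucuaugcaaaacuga
miR-19b-3p: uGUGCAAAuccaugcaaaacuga
miR-106b-3p: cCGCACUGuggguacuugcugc

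The first 5 share the seed AAAGUGC, and counted from 1 at the 5′ end miR-20a-5p differs from miR-17-5p at C1U and C12U only. miR-18a-5p differs from miR-17-5p at 6 of 23 bases, of which A4G lies in the seed. The miR-19 pair has an unrelated seed and a single difference, U11C from miR-19a-3p to miR-19b-3p. miR-106b-3p, the other arm of mir-106b, carries none of the 3 seeds and is shown because it had more counts than miR-106b-5p in every library. All 2422 counts in the 6 libraries with AAAGUGC at bases 2 to 8 came from members, as did all 9 with AAGGUGC and all 311 with GUGCAAA. No member sequence was listed under the name of another miRNA.

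In RefSeq GRCr8, Mir17 (chr15:98587848-98587931), Mir18a (chr15:98587984-98588079), Mir19a (chr15:98588131-98588212), Mir20a (chr15:98588303-98588387) and Mir19b1 (chr15:98588433-98588519) lie on the plus strand within 1 cluster. Mir19b2 (chrX:137343058-137343153), Mir20b (chrX:137343197-137343268) and Mir106a (chrX:137343570-137343647) lie on the minus strand of the X chromosome. The hairpin that the files call mir-17-2 has the sequence of Mir106a, and its mature 5p arm is identical to miR-17-5p, so reads of that mature sequence cannot be told apart between the loci. The same holds for miR-19b-3p from the 2 copies of mir-19b. The 3p sequences of mir-17 and a longer 5p form were each listed under only 1 hairpin. Mir93 (chr12:22156844-22156930, minus strand) and Mir106b, whose 5p arm lies at chr12:22157103-22157123, are within Mcm7, a gene for a replication helicase subunit.

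The libraries differed greatly in depth. High glucose libraries held 963706 to 1354456 counts and low glucose libraries 114615 to 148143, a 9.31-fold difference of means, so depth and glucose group cannot be told apart. Sequences with fewer than 2 reads in a library are not listed, and those that map to 2 hairpins have at least 3 reads, so a listed 0 is not a measured absence. Levels are given as CPM, counts scaled to a common library size with the trimmed mean of M-values (TMM), with no adjustment for length since the mature arms are 21 to 23 bases long. Erythroid miRNAs (mir-451, mir-144 and mir-486, all 3 with counts) summed to 760 to 952 CPM in high glucose, against 3243 to 6381 CPM in low glucose, with both tested arms lower. The retina list (mir-183, mir-96, mir-182 and mir-204), taken up because of the extraction text, summed to 39.2 to 65.1 CPM in high glucose, against 66.9 to 134 CPM in low glucose, with miR-96 at 0, and its 1 tested arm was lower. The liver marker mir-122 had 8490 to 14709 CPM in high glucose, against 2996 to 4308 CPM in low glucose, and its tested arm was higher. Neuronal, leukocyte and muscle lists overlapped between groups, with miR-124 and miR-133a at 0. No list of miRNAs that define Schwann cells was used, so the cell type label was not checked on its own markers. The part of these other RNAs in the results below was not tested.

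Of the 8 guide arms, miR-17-5p, miR-20a-5p, miR-106b-5p and miR-19b-3p fell in high glucose, and miR-106b-3p, an arm without a family seed, rose. Of 12 member arms, 7 passed the filter on low counts, and 4 of these were lower and 1 was higher, while 2 did not pass the test (edgeR's quasi-likelihood test, adjusted p under 0.05). Over all 297 tested arms 63.6% were called, 22.6% lower and 41.1% higher. The 7 tested members had a median log2 fold change of -1.29 and the 6 tested guides one of -1.41, beside 0.68 for all tested arms. With upper quartile scaling, which placed the median of all tested arms at 0.12, 31.3% of arms were lower and 30.6% higher. Members together took 0.136% ± 0.0149 of all counts in high glucose, against 0.262% ± 0.0338 in low glucose (SD over n = 3 libraries each). In bulk libraries, fewer cells of a type and less RNA per cell cannot be told apart.

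**Figure D1:**
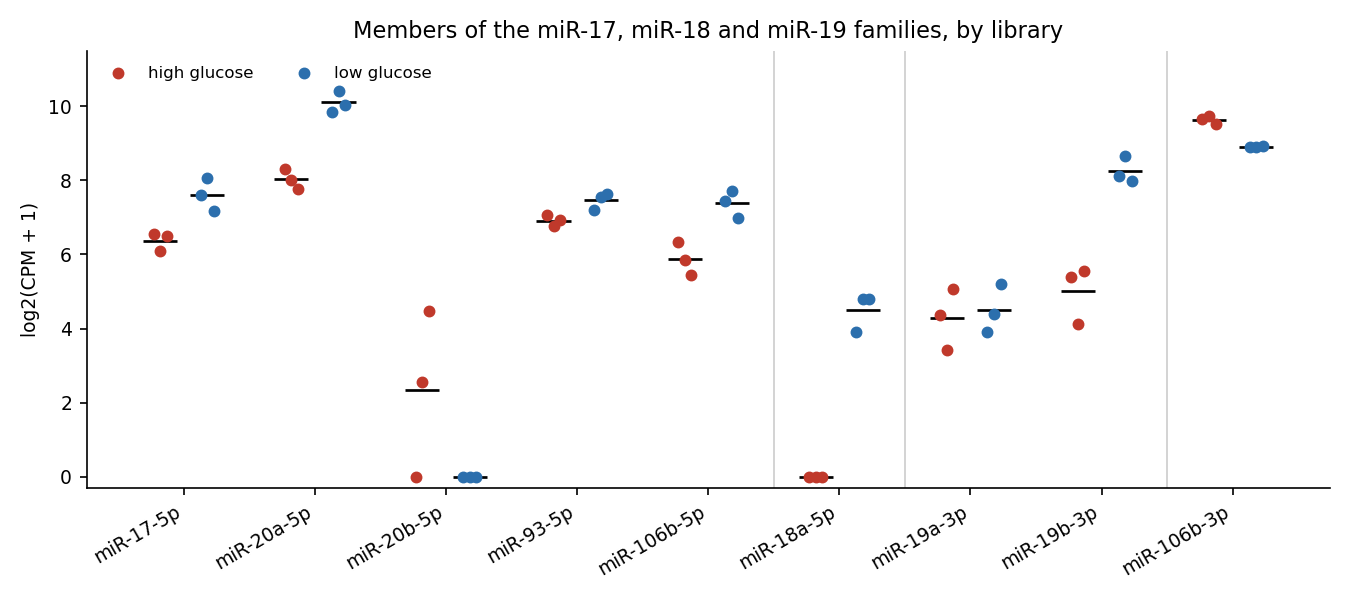
Level of each guide arm and of miR-106b-3p, as log2(CPM + 1), in each of 3 high glucose (red, left) and 3 low glucose (blue, right) libraries, with black bars at the mean of the log2 values. The miR-17-5p, miR-20a-5p, miR-93-5p, miR-106b-5p and miR-19b-3p points of high glucose lie below all those of low glucose, the miR-106b-3p points lie above, and miR-18a-5p and miR-20b-5p each have libraries at 0.

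miR-20a-5p, encoded with miR-17 on chromosome 15, was the most abundant guide of the families in both groups. It had 313, 259.1 and 218 CPM in the high glucose libraries, against 924, 1364 and 1055 CPM in the low glucose libraries. No high glucose library came near the lowest low glucose library. The means were 263 ± 47.6 CPM in high glucose, against 1114 ± 226 CPM in low glucose (SD over n = 3 libraries each). This was a 4.23-fold lower level (log2 fold change -2.08, SE 0.24, edgeR's quasi-likelihood test, adjusted p = 0.000269). After every library was thinned to 114497 reads, its counts were 29, 31 and 17 in high glucose and 123, 146 and 118 in low glucose.

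miR-17-5p, the founding member, had 92.95, 66.8 and 89.0 CPM in high glucose, against 195, 267 and 143 CPM in low glucose. All 3 high glucose libraries were below all 3 low glucose libraries, and the low glucose group was spread more widely. The means were 82.9 ± 14.1 CPM in high glucose, against 202 ± 62.5 CPM in low glucose (SD over n = 3 libraries each), a log2 fold change of -1.29 (SE 0.31, edgeR's quasi-likelihood test, adjusted p = 0.0075). That call depended on low glucose replicate 2, the highest library: without it the log2 fold change was -0.90 and edgeR's adjusted p 0.0881. Thinned libraries gave -2.69 (edgeR adjusted p = 0.00251). The value also depended on which sequences were counted, as described with the 3′ ends below.

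miR-106b-5p, from the cluster within Mcm7, had 79.5, 56.2 and 42.5 CPM in high glucose, against 174, 207 and 125 CPM in low glucose. The groups did not overlap. The log2 fold change was -1.52 (SE 0.35, edgeR's quasi-likelihood test, adjusted p = 0.0066), a 2.86-fold lower level. Its call too was lost without low glucose replicate 2, at a log2 fold change of -1.21 and an edgeR adjusted p of 0.0594.

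miR-93-5p, from the same cluster, had 132, 108 and 120 CPM in high glucose, against 146, 187 and 197 CPM in low glucose. The highest high glucose library was close to the lowest low glucose library, although the groups did not overlap. Among all tested arms 71.7% did not overlap. The log2 fold change of -0.55 (SE 0.26) did not pass the test (edgeR's quasi-likelihood test, adjusted p = 0.0912). It did pass with upper quartile scaling, at a log2 fold change of -1.14 and an edgeR adjusted p of 0.00443.

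miR-20b-5p, from the X-linked cluster, was the rarest member with this seed. It had 0, 6 and 26 counts in the high glucose libraries and 0 counts in each low glucose library. At its mean level in high glucose the low glucose libraries would hold 0.974 to 1.3 reads, fewer than the 2 needed to be listed, so a difference was not detectable at this depth. It was not tested and has no fold change.

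Summed over its 5 guides, the miR-17 family had 618, 495 and 491 CPM in high glucose, against 1438, 2026 and 1519 CPM in low glucose. The means were 535 ± 72.0 CPM in high glucose, against 1661 ± 319 CPM in low glucose (SD over n = 3 libraries each), 3.11-fold lower with a log2 ratio of -1.64, given as a description with no test. The make-up of the family also differed. miR-20a-5p made up 50.7, 52.3 and 44.4% of the family in high glucose, against 64.3, 67.3 and 69.4% in low glucose. miR-93-5p made up 21.4, 21.9 and 24.5% in high glucose, against 10.1, 9.24 and 12.9% in low glucose. Neither pair of groups overlapped, whereas the shares of miR-17-5p (15.6% ± 2.37 in high glucose, against 12.05% ± 2.29 in low glucose) and of miR-106b-5p (10.96% ± 2.14 in high glucose, against 10.2% ± 1.92 in low glucose, SD over n = 3 libraries each) did. At equal depth, in thinned libraries, the miR-20a-5p shares overlapped, while those of miR-93-5p stayed apart. High glucose library 1 then held 29 counts of miR-20a-5p, 0 of miR-17-5p, 8 of miR-93-5p and 5 of miR-106b-5p. Low glucose library 1 held 123, 24, 18 and 21 in the same order. No share of non-overlapping groups was computed over other families.

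**Figure D2:**
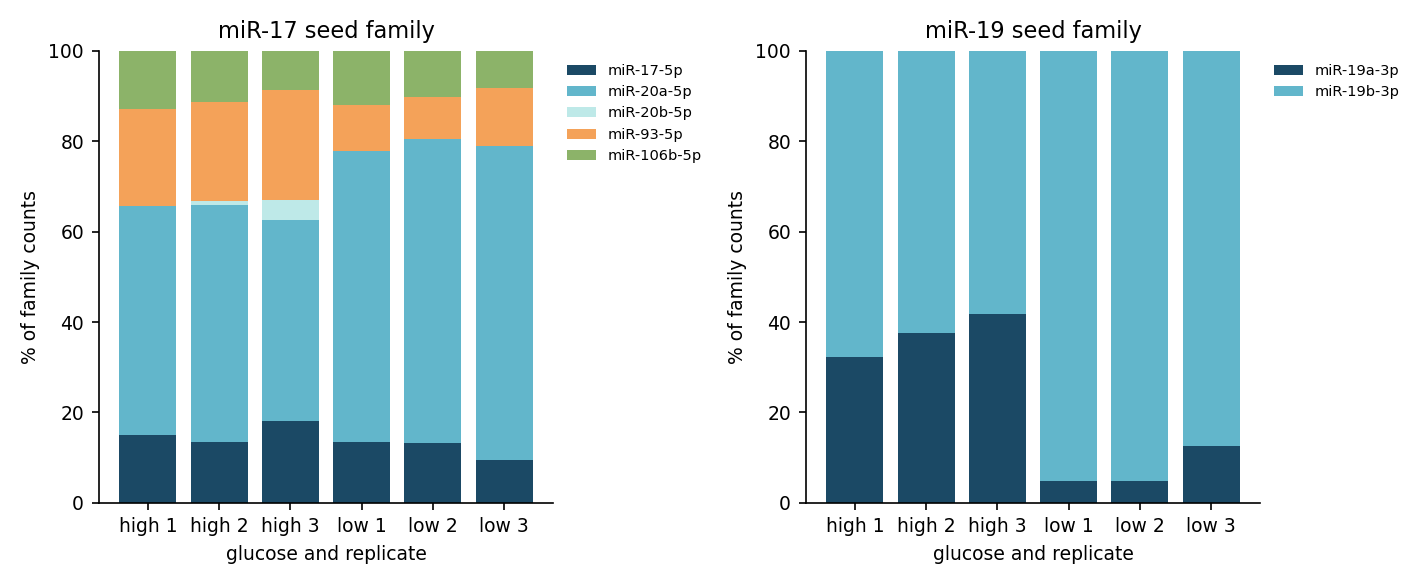
Share in percent of each guide in the summed counts of the miR-17 family and of the miR-19 family, as stacked bars for the 3 high glucose libraries (left) and the 3 low glucose libraries (right). The miR-93-5p share lies between 21.4 and 24.5% in high glucose, above the 9.24 to 12.9% of low glucose, and miR-19a-3p takes 32.2 to 41.7% of its family in high glucose, above the 4.76 to 12.5% of low glucose. These low glucose shares of miR-19a-3p rest on 2, 3 and 4 counts. With every library thinned to equal depth, the miR-19a-3p shares overlapped between groups.

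A ratio of arms within a library does not depend on scaling. The log2 ratio of miR-20a-5p to miR-17-5p (0.5 counts added to each) was 1.66 ± 0.34 in high glucose, against 2.47 ± 0.33 in low glucose (SD over n = 3 libraries each). The difference of -0.81 had an exact two-sided permutation p of 0.1, the smallest that 3 against 3 libraries allow, and 0.2 adjusted over 8 ratios. In thinned libraries, where miR-17-5p had 0 counts in high glucose library 1, the difference was 0.82 in the other direction. The log2 ratio of miR-93-5p to miR-17-5p was 0.54 ± 0.14 in high glucose, against -0.16 ± 0.52 in low glucose (SD over n = 3 libraries each; exact permutation p = 0.2). That of miR-106b-5p to miR-17-5p was -0.51 ± 0.48 in high glucose, against -0.24 ± 0.11 in low glucose (SD over n = 3 libraries each; exact permutation p = 0.5). The ratios of miR-20b-5p and miR-18a-5p to miR-17-5p rest on the added 0.5 counts and are not given.

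The miR-18 family is represented by miR-18a alone, which lies between mir-17 and mir-19a in the chromosome 15 cluster. miR-18a-5p had 0 counts in each high glucose library, against 2, 4 and 3 counts in the low glucose libraries, where it averaged 22.5 ± 7.44 CPM (SD, n = 3). It was thus listed only in the shallower group. At that level the high glucose libraries would hold 21.8 to 27.6 reads, more than the listing minimum. It did not pass the filter on low counts and was not among the arms tested in the main fit. With no filter it was called lower (edgeR's quasi-likelihood test, adjusted p = 0.0199). The same was found with a filter on a mean CPM of 10 or more (edgeR adjusted p = 0.0142). Both calls rest on the few low glucose counts above. No fold is given, since a group listed at 0 sets no floor. The other arm, miR-18a-3p, had 3, 4 and 25 counts in high glucose and 0 in each low glucose library, and was not tested. Its mean of 8.92 CPM in high glucose was close to the 8.71 CPM of miR-20b-5p, a level not detectable at the low glucose depth. Its 0 counts in low glucose therefore give no direction.

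In the miR-19 family, miR-19b-3p had the lowest fold change of the 7 tested members. Its seed is known in mouse as a main oncogenic component of the miR-17/92 cluster. The arm had 41.3, 16.3 and 45.7 CPM in high glucose, against 278, 401 and 250.2 CPM in low glucose. The groups were far apart. The means were 34.4 ± 15.9 CPM in high glucose, against 310 ± 80.4 CPM in low glucose (SD over n = 3 libraries each). The log2 fold change was -3.17 (SE 0.43, edgeR's quasi-likelihood test, adjusted p = 0.000648), a 9.02-fold lower level. The raw counts, from libraries of very unequal depth, overlapped, with 40, 20 and 56 in high glucose and 40, 60 and 28 in low glucose. Thinned to equal depth they were 4, 0 and 4 in high glucose and 38, 46 and 28 in low glucose.

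miR-19a-3p, separated from miR-19b-3p by U11C (miR-19a-3p's base first), had 19.6, 9.78 and 32.7 CPM in high glucose, against 13.9, 20.1 and 35.7 CPM in low glucose. The groups overlapped almost completely. The log2 fold change was -0.13 (SE 0.75, edgeR's quasi-likelihood test, adjusted p = 0.889), an error too wide to exclude a change of either direction, and low glucose libraries held only 2, 3 and 4 counts.

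The log2 ratio of miR-19b-3p to miR-19a-3p was 0.75 ± 0.29 in high glucose, against 3.60 ± 0.81 in low glucose (SD over n = 3 libraries each). The difference of -2.85 was at the smallest exact permutation p of 0.1 (0.2 adjusted over 8 ratios). The log2 ratio of miR-19b-3p to miR-17-5p was -1.37 ± 0.56 in high glucose, against 0.62 ± 0.15 in low glucose (SD over n = 3 libraries each; exact permutation p = 0.1, 0.2 adjusted), and that of miR-19a-3p to miR-17-5p differed by 0.85 (exact permutation p = 0.3, 0.4 adjusted). The difference for miR-19b-3p to miR-17-5p kept its direction in thinned libraries but shrank to -0.93 (exact permutation p = 0.7). That for miR-19b-3p to miR-19a-3p was then -3.33 (exact permutation p = 0.3). It rested on thinned miR-19a-3p counts of 0, 4 and 0 in high glucose and 0, 2 and 4 in low glucose.

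Summed, the miR-19 family had 60.9, 26.1 and 78.4 CPM in high glucose, against 292, 421 and 286 CPM in low glucose. The means were 55.1 ± 26.6 CPM in high glucose, against 333 ± 76.5 CPM in low glucose (SD over n = 3 libraries each), a 6.04-fold lower sum with a log2 ratio of -2.59. Compared within libraries, the miR-17 family had 10.1, 19 and 6.26 counts per miR-19 family count in high glucose, against 4.93, 4.81 and 5.31 in low glucose. All high glucose libraries were higher in this ratio, which is a sum over chosen members and has no test.

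**Figure D3:**
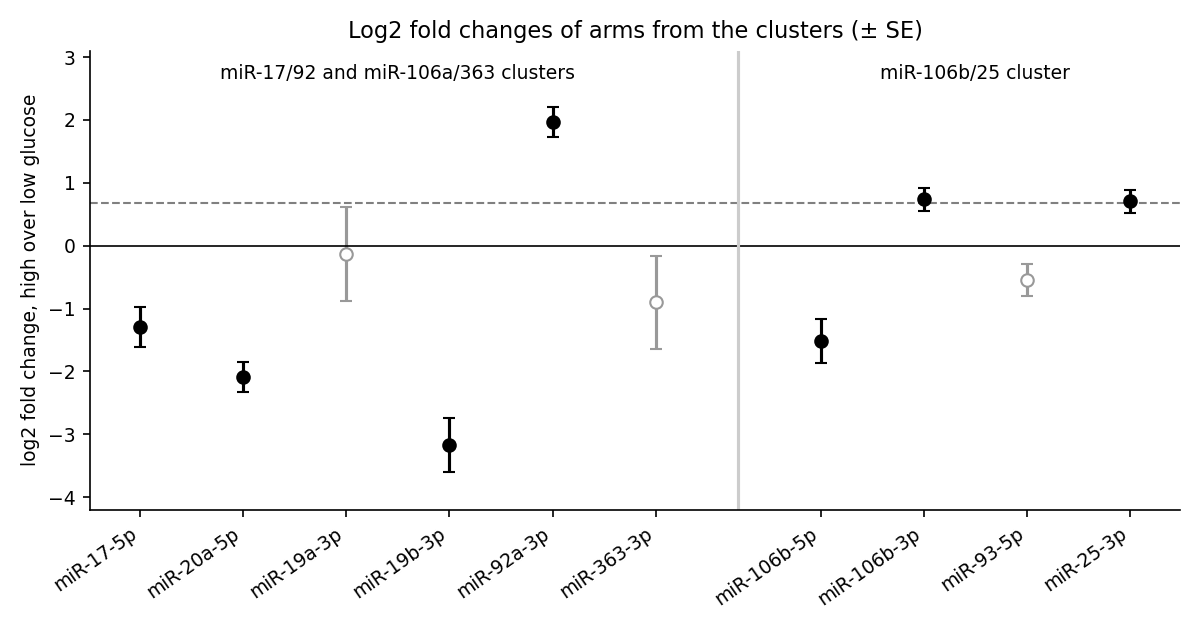
Log2 fold change (high over low glucose) ± SE of the 7 tested member arms and the 3 tested cluster mates, filled where the adjusted p was under 0.05 and open where it was not, with the median of all 297 tested arms dashed at 0.68. miR-19b-3p lies lowest at -3.17 and miR-92a-3p highest at 1.97.

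Of the 4 member arms without a family seed, miR-106b-3p alone passed the filter on low counts. It had 811, 847 and 736 CPM in high glucose, against 479, 475 and 483 CPM in low glucose. The low glucose libraries were almost identical and all lay below the high glucose libraries. The log2 fold change was 0.74 (SE 0.18, edgeR's quasi-likelihood test, adjusted p = 0.0075), near the median of 0.68 over all tested arms. With upper quartile scaling it was 0.15 and the call was lost (edgeR adjusted p = 0.526), as it was in thinned libraries (0.46, edgeR adjusted p = 0.0963).

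Because both arms come from 1 hairpin, their balance was also compared within libraries. The 5p arm made up 8.93, 6.23 and 5.46% of mir-106b counts in high glucose, against 26.6, 30.4 and 20.6% in low glucose. The 95% Wilson intervals ran from 7.21 to 11.02%, 4.95 to 7.81% and 4.19 to 7.09% in the high glucose libraries, and from 18.7 to 36.3%, 22.3 to 39.9% and 12.7 to 31.6% in the low glucose libraries. No interval of one group touched one of the other. The means were 6.87% ± 1.83 in high glucose, against 25.9% ± 4.94 in low glucose (SD over n = 3 libraries each), a difference of -19.0 points, with an exact two-sided permutation p of 0.1, the smallest possible. In thinned libraries the difference was -17.3 points.

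A shifted balance of arms was common in these libraries. Of 10 annotated miRNAs with 10 or more counts of each arm in each library, 80.0% had groups that did not overlap and 70.0% had every high glucose library below every low glucose library. mir-106b ranked 2 by the size of the difference, whose median over the 10 was 5.33 points. The other members gave little to compare. mir-20a had only its 5p arm and the mir-19 pair only 3p arms. miR-17-3p had 4, 53 and 0 counts in high glucose and 0, 0 and 5 in low glucose. These counts pool different sequences, each listed under only 1 mir-17 hairpin. miR-93-3p had 10 counts in 1 high glucose library and 0 elsewhere.

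**Figure D4:**
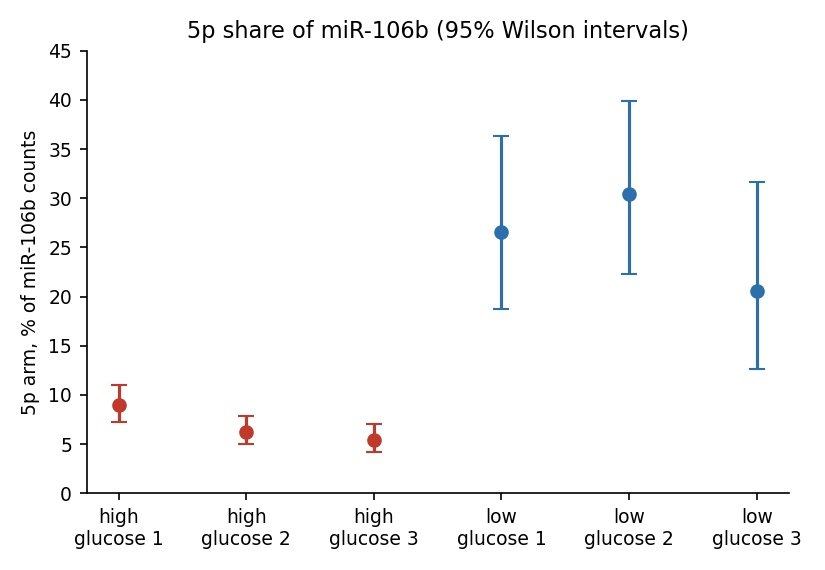
Share of the 5p arm in the counts of mir-106b, in percent with 95% Wilson intervals, in each of 3 high glucose (left) and 3 low glucose (right) libraries. The high glucose shares lie between 5.46 and 8.93% and the low glucose shares between 20.6 and 30.4%.

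Other miRNAs of the same clusters served as a comparison. Of the 5 names listed for this purpose (mir-92a, mir-25, mir-363, mir-106a and mir-18b) the first 3 had rows under these names, while the hairpin of Mir106a is listed as mir-17-2 and counted with miR-17. miR-92a-3p, miR-25-3p and miR-363-3p are known to share a seed of their own. Of these 3 tested arms 2 were higher in high glucose and 0 lower. miR-92a-3p, from the same transcripts as miR-17 and miR-19b, had 1041, 785 and 1130 CPM in high glucose, against 250.1, 214 and 295 CPM in low glucose. It stood above low glucose in every library, with a log2 fold change of 1.97 (SE 0.24, edgeR's quasi-likelihood test, adjusted p = 0.000348). miR-25-3p, from the cluster of miR-93 and miR-106b, was 1.63-fold higher (log2 fold change 0.71, SE 0.18, edgeR's quasi-likelihood test, adjusted p = 0.0107), near the median of all tested arms, and lost the call with upper quartile scaling (0.13, edgeR adjusted p = 0.574). miR-363-3p did not pass the test, at a log2 fold change of -0.90 (SE 0.74, edgeR's quasi-likelihood test, adjusted p = 0.321).

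Products of shared transcripts stood in different proportions within a library. There were 3.33, 3.03 and 5.18 counts of miR-92a-3p per count of miR-20a-5p in high glucose, against 0.271, 0.157 and 0.280 in low glucose. Per count of miR-17-5p there were 11.2, 11.7 and 12.7 in high glucose, against 1.29, 0.8 and 2.06 in low glucose. For miR-25-3p the ratio to miR-93-5p was 25.6, 34.1 and 40.4 in high glucose, against 15.9, 12.4 and 13.6 in low glucose, and that to miR-106b-5p was 42.6, 65.8 and 114 in high glucose, against 13.3, 11.2 and 21.4 in low glucose. In these 4 ratios every high glucose library was above every low glucose library. The exact two-sided permutation p was 0.1 for each, and 0.1 adjusted over 5 ratios that were chosen after their values were seen. Among all tested arms 71.7% had groups that did not overlap, and no such share was computed over other pairs of arms. Both mir-92a and mir-17 also have copies on the X chromosome, so the ratios of miR-92a-3p mix transcripts.

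The counted sequences of miR-17-5p differed at the 3′ end between groups. The form without and the form with an added A, in DNA letters with the added base in capitals, are shown because the direction of the arm depends on which is counted.
miR-17-5p, as in RefSeq: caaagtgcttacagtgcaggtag
miR-17-5p, added A: caaagtgcttacagtgcaggtagA
The RefSeq form had 38, 30 and 28 counts in high glucose, against 16, 26 and 12 in low glucose. The form with the added A had 38, 46 and 72 counts in high glucose, against 0, 4 and 4 in low glucose. Both forms are listed under 2 hairpins. For the form with the added A, each low glucose value of 4 is 3 reads by the deposited read numbers. These were divided between the hairpins and rounded up.

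Sequences ending in an added A made up 57.8, 56.1 and 66.1% of miR-17-5p in high glucose, against 0, 10 and 25% in low glucose. For miR-20a-5p the share was 29.7, 11.01 and 11.6% in high glucose, against 3.01, 0.980 and 3.39% in low glucose. For miR-93-5p it was 14.8, 9.02 and 22.4% in high glucose, against 0% in each low glucose library. miR-106b-3p had 7.77, 3.27 and 5.88% in high glucose, against 0% in each low glucose library. The high glucose libraries were above the low glucose libraries for these 4 arms (exact permutation p = 0.1 each). Of 111 annotated arms with 10 or more counts in each library, 16.2% had every high glucose library above every low glucose library, and the members in that set were 4 of 6. The other members in the set, miR-19b-3p and miR-106b-5p, have A as the hairpin base after a main listed form. An A added to that form reads as templated and is not counted, so their shares near 0 can be too low. Other forms were open to the count, and miR-106b-5p had 2.60% in high glucose library 1. The same limit holds for miR-19a-3p. The 111 arms were not screened for it.

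This measure was chosen after the data were seen, and the minimum of 2 reads per sequence moves with depth in the same direction. In thinned libraries the difference was 12.5 points for miR-20a-5p and 5.76 points for miR-106b-3p, both with the groups still apart (exact permutation p = 0.1 each). For miR-93-5p it was 8.33 points (exact permutation p = 1), and for miR-17-5p no value could be had. If miR-17-5p was counted only by its most abundant sequence, the form with the added A, its log2 fold change was 1.29 and no call was made (edgeR's quasi-likelihood test, adjusted p = 0.2). Without mismatched sequences, and so without the added A, it was -2.43 (edgeR's quasi-likelihood test, adjusted p = 0.000975).

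**Figure D5:**
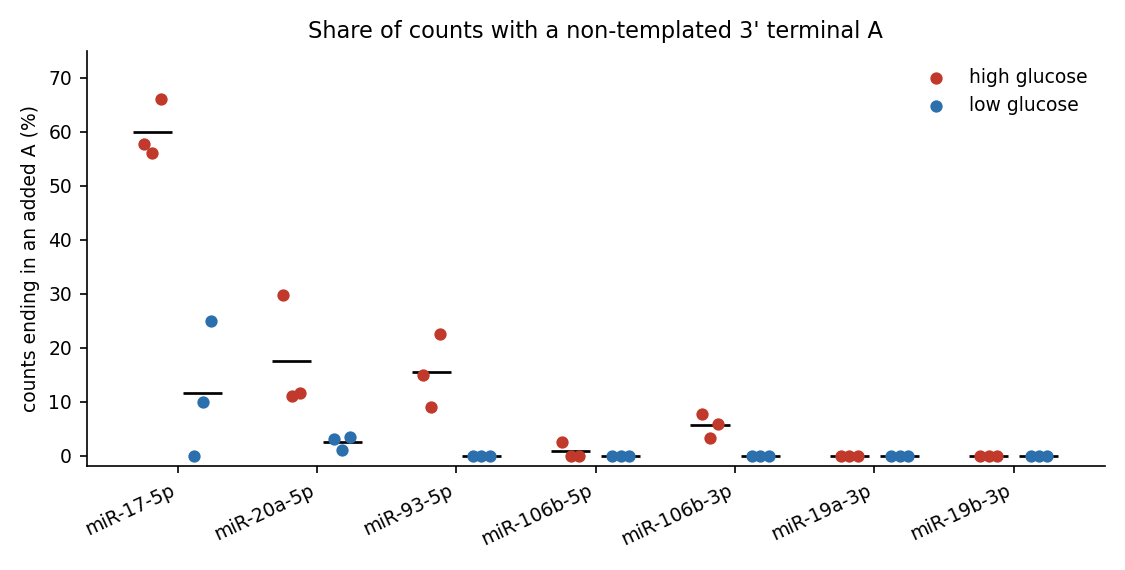
Share of counts in sequences ending in an added A, in percent, for member arms in each of 3 high glucose (left) and 3 low glucose (right) libraries, with bars at the means. miR-17-5p averages 60.0% in high glucose and 11.7% in low glucose. For miR-19a-3p, miR-19b-3p and miR-106b-5p an A added to a main form reads as templated, so their points near 0 can be too low.

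Single member sequences came and went between replicates. Of 27 member sequences with 20 or more counts in a high glucose library, 13 (48.1%) were at 0 in another high glucose library. Over all arms this share was 25.9%. Beyond the cut of 20 counts, members and all arms were not matched for abundance. Whether member sequences dropped to 0 more often than other sequences of like abundance was not tested. For miR-106b-5p, the RefSeq form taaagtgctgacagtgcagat had 28, 26 and 0 counts in high glucose and 7, 11 and 5 in low glucose. The form with 1 more base, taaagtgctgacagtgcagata, had 0, 0 and 20 counts in high glucose and 12, 8 and 7 in low glucose.

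Among 156 other annotated arms that averaged at least 50 counts in either group, the closest profile to miR-20a-5p over the 6 libraries was that of miR-218a-5p, with a root mean square difference of 0.358 in centred log2 CPM. miR-23a-3p (0.378) and miR-22-5p (0.379) followed. For miR-19b-3p the closest were miR-218a-5p (0.571), miR-451-5p (0.660) and miR-184-3p (0.695). The profile of miR-18a-5p rests on the prior count in the 3 libraries at 0, so no neighbours are given. These are descriptions over 6 libraries in 2 groups, and miR-451 is on the erythroid list above.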

How the data were processed

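Small RNA was sequenced in 6 libraries labelled as the RSC96 line. The deposited values are raw read counts per distinct sequence and hairpin, per the file headers. cutadapt 1.9.3 and Novoalign 3.02.12 are named in the submitters' processing notes, without roles. For the genome build and the hairpin database, versions were not given in the sources used here, and coordinates printed are those of RefSeq GRCr8. Listed sequences were found to be 16 to 40 bases long with at most 1 mismatch. Members and lists were chosen with earlier results of these data known.

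Counts were summed per arm (before or after the middle of the hairpin), joining copies, with Python 3.11.15, pandas 2.3.3, NumPy 2.4.6 and SciPy 1.17.1. Figures used matplotlib 3.10.9. In R 4.3.3, edgeR 4.0.16 fitted all arms by group (TMM, filterByExpr at 10 counts, robust quasi-likelihood test, Benjamini-Hochberg threshold 0.05). The SE is the fold change over the root of its F statistic. The script was tested on simulated data. Shares and ratios were compared by exact permutation tests (10 splits). Wilson intervals cover counting error only, since the reads carry no molecular identifiers in these files. Arms with a family seed and other tested member arms were named, with fixed cluster mates and the 3 profiles closest to each family's most abundant arm, left out for miR-18a-5p because of its 0 counts. Replicates of a group differed beyond counting noise (chi-square per degree of freedom 73.8 to 101 in high and 4.19 to 11.4 in low glucose). Alternatives were other scalings, filters, DESeq2 1.42.0, limma 3.58.1, a replicate block, thinning, restricted sequences and leaving out each library. Low glucose libraries held 9.31-fold fewer counts, so their counting error is larger.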

Additional observations from a re-analysis of the deposited data

How the results depend on the processing

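miR-20a-5p and miR-19b-3p kept their lower call under all 14 other settings and without any 1 library. Of 297 tested arms DESeq2 called 178 and limma-voom 181, each with 4 lower and 1 higher member. The replicate numbers did not pair the libraries (same-number correlations of deviations 0.044, -0.00066 and -0.028, and not every library correlated best with its own number). With the replicate block 163 of 297 tested arms were called, and the same 5 member arms passed.

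In thinned libraries 118 of only 160 tested arms were called, 61 higher and 57 lower. The summed miR-17 and miR-19 families then had log2 ratios of -2.02 and -3.32, and 4 member arms were lower and 0 higher. The difference in the share of the most abundant sequence turned to 14.1 points for miR-106b-5p and 3.20 for miR-93-5p, and the differences in log2 ratio to miR-17-5p turned to 0.82 for miR-20a-5p and 1.49 for miR-106b-5p. With upper quartile scaling 0 members were higher and the miR-17 family stood at -2.23. Without mismatched sequences it stood at -1.99. Counting the most abundant sequence only gave 40 lower arms among 236 tested, and 3 called members, 2 of them lower. miR-17-5p then turned to 1.29, and the ratios to miR-17-5p of miR-93-5p and miR-19a-3p turned to -2.56 and -1.08. Same-seed sequences only turned miR-19a-3p to 0.96. The causes were not tested.

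Leaving out 1 library gave 137 to 171 called arms (79 to 117 higher, 41 to 59 lower), 3 to 5 called members (2 to 4 lower, 1 to 1 higher), family log2 ratios of -1.74 to -1.32 (miR-17) and -2.98 to -2.25 (miR-19), and a log2 fold change of -0.35 to 0.28 for miR-19a-3p. The number of tested arms moved too. It was 203 to 211 without a high glucose library and 385 to 393 without a low glucose library, against 297 in the main fit. The 5p share differed by -21.6 to -16.7 points for mir-106b and by -14.5 to 5.81 for mir-17. The most abundant sequence's share differed by -2.25 to 7.63 points (miR-106b-3p) and -14.9 to 3.96 (miR-106b-5p), and the miR-106b-5p to miR-17-5p log2 ratio by -0.42 to 0.00093. The lowest counts were those without low glucose replicate 2 (41 lower arms of 388 tested, 2 lower members) and without high glucose replicate 2 (79 higher arms of 203 tested).

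miR-93-5p was called lower with RLE (-0.67, edgeR's quasi-likelihood test, adjusted p = 0.0432), without scaling (-0.67, edgeR adjusted p = 0.0478) and without mismatches (-0.82, edgeR adjusted p = 0.0294). miR-106b-5p lost its call when counted by its most abundant sequence (-1.60, edgeR adjusted p = 0.239). miR-19a-3p had 2, 3 and 4 counts in low glucose, and miR-20b-5p could not be detected there at this depth.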
